A study of Mus musculus with 7 samples.

Results

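The genes described here are the translation initiation and elongation factors, taken as every protein-coding gene whose symbol begins with Eif and a digit from 1 to 6, with Eef1 or with Eef2. Eif4ebp1 and the eIF2 kinases (symbols beginning with Eif2ak) were left out of the set and are described further on as regulators. The rule uses names and no measured value, and it found 63 of the 53379 genes in the count tables, 59 of which had enough reads to be tested. RNA had been sequenced from EPCAM+ endometrial epithelium, the lining of the uterine cavity and its glands, sorted with magnetic beads after enzymatic digestion of mouse uteri. The 4 mutant libraries came from 4 single CD-1 mice that were 120 days old and of genotype LtfCre 0/+; Brg1 fl/fl, in which Cre is driven by Ltf (lactoferrin) and both copies of Brg1 are floxed. The 3 control libraries came from pooled CD-1 mice labelled Control wild-type and were reanalysed from an earlier series. The labels place the controls on a first flow cell and give no age for them, so genotype, mouse age, pooling and sequencing set cannot be told apart in any comparison.

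Translation of an mRNA starts when the small ribosomal subunit, carrying eIF3, eIF1, eIF1A, eIF5 and the ternary complex of eIF2, GTP and the initiator tRNA, is brought to the capped end by eIF4F and scans to a start codon. eIF2 must be recharged with GTP by its exchange factor eIF2B, and phosphorylation of eIF2 blocks that step in the integrated stress response. During elongation eEF1A delivers aminoacyl-tRNAs, eEF2 moves the ribosome along the message and eIF5A helps at poorly reacting peptide bonds. In the uterine epithelium, as in other tissues, these genes are expressed broadly and supply the machinery for growth and secretion.

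Gene reads numbered 12436971 to 13364080 in mutants and 21372036 to 25862245 in controls. Values below are reads per 1000000 gene reads after scaling by the trimmed mean of M values (TMM), called normalised CPM, and a gene at the floor of 3 reads had, before that scaling, 0.224 to 0.241 in mutants against 0.116 to 0.140 in controls. That floor covers counting error only. Scaling factors were 1.03 to 1.23 in mutants and 0.852 to 0.886 in controls, without overlap. Smarca4, which encodes Brg1, averaged 84.1 ± 20.2 normalised CPM in mutants and 263 ± 17.0 in controls (SD, n = 4 and 3; log2 fold change −1.64 ± 0.23 SE, edgeR quasi-likelihood adjusted p = 0.00967, and 0.0532 to 0.0612 without any 1 control). Summed over 9 epithelial markers the level was 8411 to 11625 in mutants and 17128 to 21338 normalised CPM in controls. Each of these markers had a negative log2 fold change, from −0.38 (Epcam) to −1.58 (Krt7). In 2 of the 9 the edgeR adjusted p was under 0.05, where 6.18% of all genes tested were lower at that threshold. Summed stromal fibroblast markers (8 genes) had 163 to 471 in mutants against 538 to 689 in controls. All of these but Hoxa11 had a negative log2 fold change, and 1, Dcn, had an edgeR adjusted p under 0.05. Smooth muscle markers (7 genes) had 7.98 to 84.4 against 70.6 to 110 and endothelial markers (5 genes) 4.45 to 16.6 against 16.05 to 19.2. Mesothelial markers (4 genes) had 8.996 to 37.4 against 40.1 to 55.3 and immune markers (8 genes) 247 to 510 against 391 to 502. Of 4 erythroid markers, 3 had no read in any library. The part of these cell type markers in the results below was not tested, and in bulk RNA fewer cells of a type and less RNA per cell cannot be told apart.

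Of the 59 tested factors, 3 were higher in mutants and 2 were lower. A gene passed, or was called, where its p from edgeR's quasi-likelihood test was under 0.05 after Benjamini-Hochberg adjustment over all 14610 genes tested. The higher genes were Eif5a2, a second eIF5A, Eef2k, the kinase that inhibits eEF2, and Eef1akmt2, a lysine methyltransferase of eEF1A, and the lower genes were Eif5, the GTPase activator of eIF2, and Eif3f, a subunit of eIF3. These 5 are 8.47% of the tested factors, against 11.5% of all genes tested, of which 5.37% were higher and 6.18% lower. The share was thus near the background. The median log2 fold change of the 59 factors was 0.03 against 0.06 over all genes, 31 factors had a positive value and 28 a negative one, and 42 differed by less than 1.5-fold. Ranges of the mutants and controls were separate for 17 factors, 6 with mutants above and 11 with mutants below, which is 28.8% against 31.5% of all genes. In the authors' deposited table, 8 of 60 factors with an adjusted p had one under 0.05 (13.3%, 3 higher and 5 lower) against 17.2% of all genes with one there. The authors' deposited table named the same 5 genes in the same directions, together with Eef2, Eif1 and Eef1akmt3, all 3 lower.

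The calls depended on the libraries. Without mutant replicate 1 the edgeR test called 13 factors, 8 higher and 5 lower, against a background of 29.5% of all genes in that fit. Without mutant replicates 2, 3 and 4 it called 2, 1 and 1 factors, where 6.75%, 4.21% and 6.34% of all genes were called. Without control replicates 1, 2 and 3 it called 0, with 9, 9 and 8 factors at an unadjusted p under 0.05, where 0.878%, 1.11% and 0.902% of all genes were called. On all 7 libraries DESeq2 called 9 of the 59 factors against 23.4% of all genes, and limma-voom called 5 against 13.3%.

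**Figure D1:**
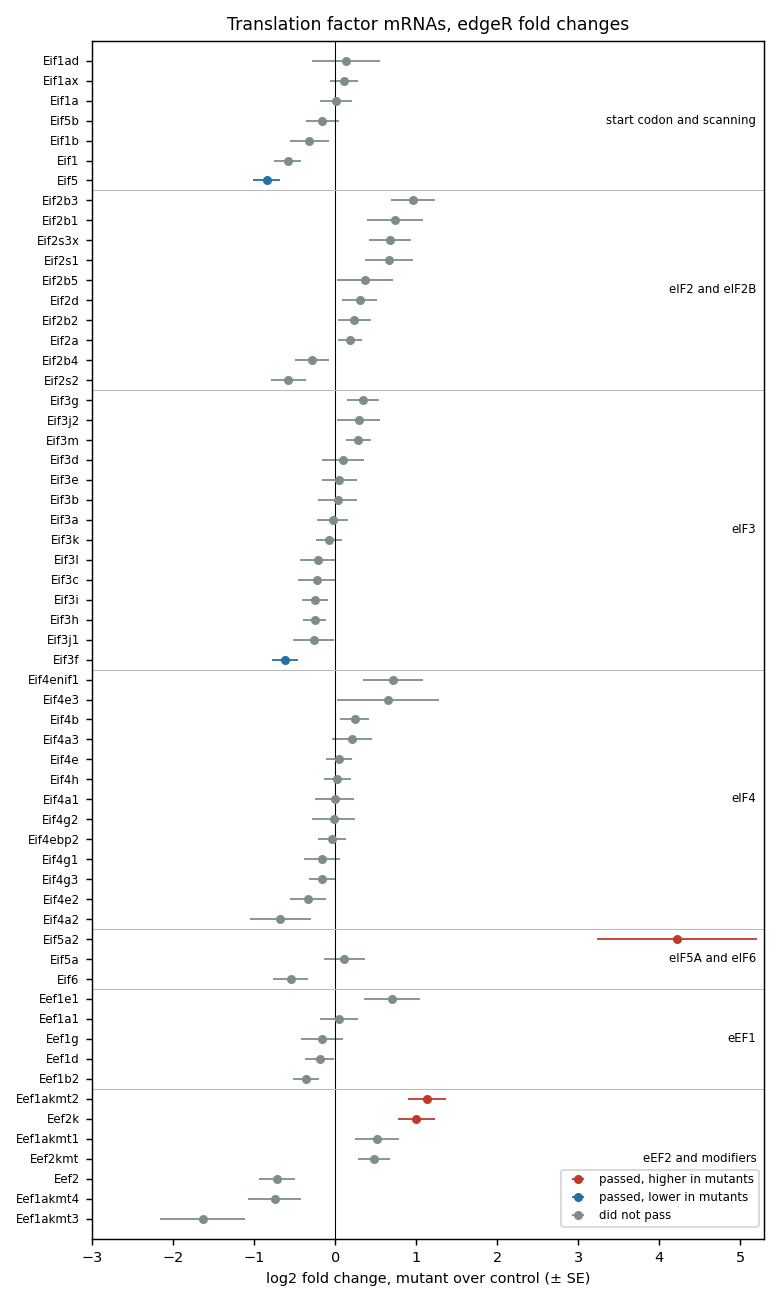
The log2 fold change of each tested factor (horizontal axis, mutant over control, bars SE) by role group, in red or blue where the edgeR adjusted p was under 0.05. Most of the 59 points lie close to 0, Eif5a2 stands at 4.22 and the eIF2 and eIF2B group lies mostly to the right.

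The promoters of the 5 called genes are printed from 150 bases before to 30 after the most upstream RefSeq start (GRCm38.p6), since they are the genes whose transcripts passed the test, and those of Eef1a1 and Eef2 beside them because these 2 genes hold 35.7% to 49.9% of all factor reads in mutants and 41.8% to 46.3% in controls. Capitals mark an E-box, spelled CACGTG, which reads alike on both strands, a TATA motif, spelled TATAAA and searched on both strands, or a cAMP response element, spelled TGACGTCA, and likewise a pyrimidine tract, defined as C followed by at least 7 pyrimidines on the gene's strand between 25 bases before and 35 after the start. Such tracts at the very start of an mRNA are the signature of 5′ terminal oligopyrimidine messages, a class that includes most ribosomal protein and many translation factor mRNAs. The windows are chr3:28781127-28781306 (plus strand) for Eif5a2, chr7:120842681-120842860 (plus) for Eef2k, chr7:132852618-132852797 (minus) for Eef1akmt2, chr12:111537951-111538130 (plus) for Eif5, chr7:108934265-108934444 (plus) for Eif3f, chr9:78481695-78481874 (minus) for Eef1a1 and chr10:81176481-81176660 (plus) for Eef2.
Eif5a2: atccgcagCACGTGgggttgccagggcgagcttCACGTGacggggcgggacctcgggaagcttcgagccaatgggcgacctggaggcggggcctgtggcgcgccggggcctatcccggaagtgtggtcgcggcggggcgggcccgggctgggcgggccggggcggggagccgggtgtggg
Eef2k: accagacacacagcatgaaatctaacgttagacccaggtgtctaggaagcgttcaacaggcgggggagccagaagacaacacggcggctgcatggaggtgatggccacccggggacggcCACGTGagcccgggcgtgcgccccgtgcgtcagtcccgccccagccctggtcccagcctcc
Eef1akmt2: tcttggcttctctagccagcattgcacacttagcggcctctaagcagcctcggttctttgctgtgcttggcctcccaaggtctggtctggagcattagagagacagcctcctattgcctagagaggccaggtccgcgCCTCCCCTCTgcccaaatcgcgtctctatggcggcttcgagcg
Eif5: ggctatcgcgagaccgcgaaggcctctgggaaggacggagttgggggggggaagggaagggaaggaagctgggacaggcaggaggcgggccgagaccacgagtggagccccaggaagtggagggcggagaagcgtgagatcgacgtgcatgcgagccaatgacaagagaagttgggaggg
Eif3f: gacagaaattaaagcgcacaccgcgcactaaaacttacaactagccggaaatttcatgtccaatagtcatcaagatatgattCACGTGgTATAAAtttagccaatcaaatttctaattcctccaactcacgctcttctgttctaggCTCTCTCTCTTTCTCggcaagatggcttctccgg
Eef1a1: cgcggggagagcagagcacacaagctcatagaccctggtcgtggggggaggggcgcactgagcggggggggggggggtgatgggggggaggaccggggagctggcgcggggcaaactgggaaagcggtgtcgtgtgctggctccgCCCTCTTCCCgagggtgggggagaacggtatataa
Eef2: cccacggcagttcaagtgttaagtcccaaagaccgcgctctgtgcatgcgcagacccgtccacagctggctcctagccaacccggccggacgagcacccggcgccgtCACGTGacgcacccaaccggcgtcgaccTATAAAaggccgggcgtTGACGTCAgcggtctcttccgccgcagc

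Of the 63 factors, 48 had a window in the RefSeq table, and over its full 300 bases (250 before and 50 after the start) 11 of them (22.9%) held an E-box, against 7.24% of 27025 genes and 7.91% of 17492 protein-coding genes. These 11 included Eif5a2, Eef2k and Eif3f of the called genes and Eef2, Eif4a1, Eif4g1 and Eif4h among the abundant ones. A GC box (GGGCGG) was present in 75.0% of the factor windows, 35.9% of all windows and 46.3% of protein-coding ones. Shares were smaller in the factors for TATAAA (10.4%, against 14.2% of all and 13.3% of protein-coding windows) and CCAAT (27.1%, against 38.0% and 39.2%). The cAMP response element was found in 1 factor, Eef2 (2.08%, against 1.85% of all windows and 2.33% of protein-coding ones). A pyrimidine tract occurred in 12 factors (25%, against 17.2% of all windows and 17.1% of protein-coding ones). The 10 tested ones had a median log2 fold change of 0.26 against 0.01 for the 36 tested factors with a window and no tract. Within the tract group the values ran from −0.61 for Eif3f to 1.14 for Eef1akmt2, so called genes of both directions carried one. The presence of a marked tract does not separate 5′ terminal oligopyrimidine messages from other messages. These matches are letters in a window and were not tested as binding sites, and the base composition of the windows was not compared.

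Start codon selection is the work of eIF1, eIF1A, eIF5 and eIF5B. Eif5 (chromosome 12, 111538016 to 111546752, plus strand, GRCm38) had 434, 502, 448 and 403 normalised CPM in mutants against 778, 784 and 848 in controls. Every mutant lay below every control, and the means were 447 ± 41.3 and 804 ± 38.8 (SD, n = 4 and 3). Its level was 1.80-fold lower in mutants (log2 fold change −0.85 ± 0.17 SE, edgeR adjusted p = 0.0236), on 5547 to 6611 reads in mutants and 14753 to 18657 in controls. The adjusted p was 0.104, 0.102 and 0.114 in edgeR without control replicates 1, 2 and 3, and 0.0663 and 0.0564 without mutant replicates 3 and 4, while the fold change stayed between −0.90 and −0.78. Total count scaling left it at −0.50 with an edgeR adjusted p of 0.0631.

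Eif1, which keeps the scanning ribosome open until a start codon is found, is the most abundant transcript of that group per kilobase of exon. It had 302, 335, 298 and 300 normalised CPM in mutants against 418, 429 and 547 in controls, again without overlap, yet it did not pass (log2 fold change −0.59 ± 0.17 SE, edgeR adjusted p = 0.0652). It was called by DESeq2 and without mutant replicate 1, and its value under total count scaling was −0.24. Loci that share 50-base words with Eif1 held 94 to 142 reads in mutants and 11 to 14 in controls, chiefly Gm16378 with 96, 129, 105 and 80 reads in mutants against 4, 4 and 1 in controls. They amounted to at most 3.25% of the Eif1 reads in a mutant and 0.177% in a control. Its close paralogue Eif1b averaged 10.3 ± 2.04 against 12.8 ± 0.793 normalised CPM and did not pass (−0.32, edgeR adjusted p = 0.405), a value that turned to 0.04 under total count scaling. Of the 7 genes in the group 1 was called, against 11.5% of all genes tested. The other 4, among them Eif5b, which joins the ribosomal subunits, had values between −0.16 and 0.13. Eif5b turned to 0.19 under total count scaling.

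The subunits of eIF2 and eIF2B gave mostly positive values. None of the 10 tested genes passed the edgeR test on all 7 libraries with TMM scaling, which 11.5% of all genes passed. Their median log2 fold change was 0.33, with 8 positive and 2 negative, and it stayed positive in every setting tried (0.24 to 0.69). Eif2b3, the gamma subunit of eIF2B, had 11.3, 14.5, 20.9 and 14.0 normalised CPM in mutants against 8.49, 7.09 and 7.82 in controls. The groups did not overlap, and the log2 fold change was 0.96 ± 0.27 SE (edgeR adjusted p = 0.0602). Eif2b3 was called by DESeq2 (adjusted p = 0.00675) and in edgeR under upper-quartile and total count scaling (adjusted p = 0.0386 and 0.0264), and without control replicate 2 its edgeR adjusted p was 0.181, the highest of the scalings, filters, tools and left-out libraries tried. Eif2b1, the alpha subunit, had 16.7, 42.2, 43.8 and 26.5 normalised CPM in mutants against 19.0, 19.1 and 20.05 in controls. Mutant replicate 1 lay below all 3 controls and the other mutants above them (0.74 ± 0.34 SE, edgeR adjusted p = 0.190).

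The same order of libraries, with mutant replicate 3 highest and mutant replicate 1 lowest, held for the subunits of eIF2 itself that bind the regulatory phosphate (Eif2s1, alpha) and GTP (Eif2s3x, gamma). Eif2s1 had 58.98, 90.2, 139 and 84.0 normalised CPM in mutants against 59.1, 49.8 and 67.4 in controls. Eif2s3x had 41.1, 75.1, 83.3 and 58.1 in mutants against 40.2, 37.6 and 43.0 in controls. Neither passed (log2 fold changes 0.66 ± 0.30 and 0.68 ± 0.26 SE, edgeR adjusted p = 0.176 and 0.128), though total count scaling called Eif2s3x in edgeR, and Eif2s3x is uncertain since 34.6% of its words of 50 bases occur in other genes too. Without mutant replicate 1 the edgeR test called Eif2s1, Eif2s3x, Eif2b1 and Eif2b3 higher, with adjusted p of 0.0286, 0.0120, 0.0172 and 0.0155. These are 4 of the 10 tested genes of the group, in a fit where 29.5% of all genes were called. Eif2s2, the beta subunit, had the opposite sign, with 107, 144, 156 and 98.2 normalised CPM in mutants against 204, 161 and 201 in controls (−0.58 ± 0.22 SE, edgeR adjusted p = 0.122). Per kilobase, Eif2b5, the catalytic subunit of the exchange factor, was the most abundant member in mutants, at a mean of 26.5 in mutants and 20.6 normalised CPM per kilobase in controls (0.36 ± 0.35 SE, edgeR adjusted p = 0.515). In controls Eif2s2 was the most abundant, at 18.7 in mutants and 27.9 normalised CPM per kilobase in controls. Eif2s3y, the Y-linked copy of the gamma subunit, had no read in any library.

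eIF3 is the large scaffold that holds the small subunit during initiation. Of its 14 tested genes 1 was called, against 11.5% of all genes tested. Eif3f (chromosome 7, 108934417 to 108942951, plus strand, GRCm38) had 238, 277, 218 and 245 normalised CPM in mutants against 367, 353 and 403 in controls. The groups did not overlap and the level was 1.53-fold lower in mutants, with means of 244 ± 24.6 and 374 ± 25.4 (log2 fold change −0.61 ± 0.16 SE, edgeR adjusted p = 0.0491). It stood close to the threshold. The edgeR adjusted p was 0.178, 0.163 and 0.198 without control replicates 1, 2 and 3, 0.0662, 0.122 and 0.0980 without mutant replicates 2, 3 and 4, 0.0594 with unstranded counts, and 0.0868 and 0.265 (log2 fold change −0.26) under upper-quartile and total count scaling.

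The other eIF3 genes lay between −0.26 and 0.34 on the log2 scale, with a median over all 14 of −0.05, which turned to 0.08 under upper-quartile and 0.30 under total count scaling. Eif3h, which forms a module with Eif3f in the complex and is the most abundant eIF3 transcript per kilobase (126 in mutants, 150 normalised CPM per kilobase in controls), had 202, 215, 190 and 205 normalised CPM in mutants against 237, 229 and 260 in controls. Its groups did not overlap either, but it did not pass (−0.25 ± 0.15 SE, edgeR adjusted p = 0.277), and total count scaling turned it to 0.10. Eif3m, another subunit of that module, lay on the other side, with mutants above controls (95.4 ± 5.78 against 78.3 ± 8.21 normalised CPM; 0.29 ± 0.15 SE, edgeR adjusted p = 0.248), and total count scaling called it in edgeR. The lowest eIF3 transcript per kilobase was Eif3j1, at 2.10 in mutants and 2.53 normalised CPM per kilobase in controls, and its copy Eif3j2 shares 91.8% of its 50-base words with other genes, so how their reads were divided is uncertain. Within eIF3 the level per kilobase thus spanned more than an order of magnitude.

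**Figure D2:**
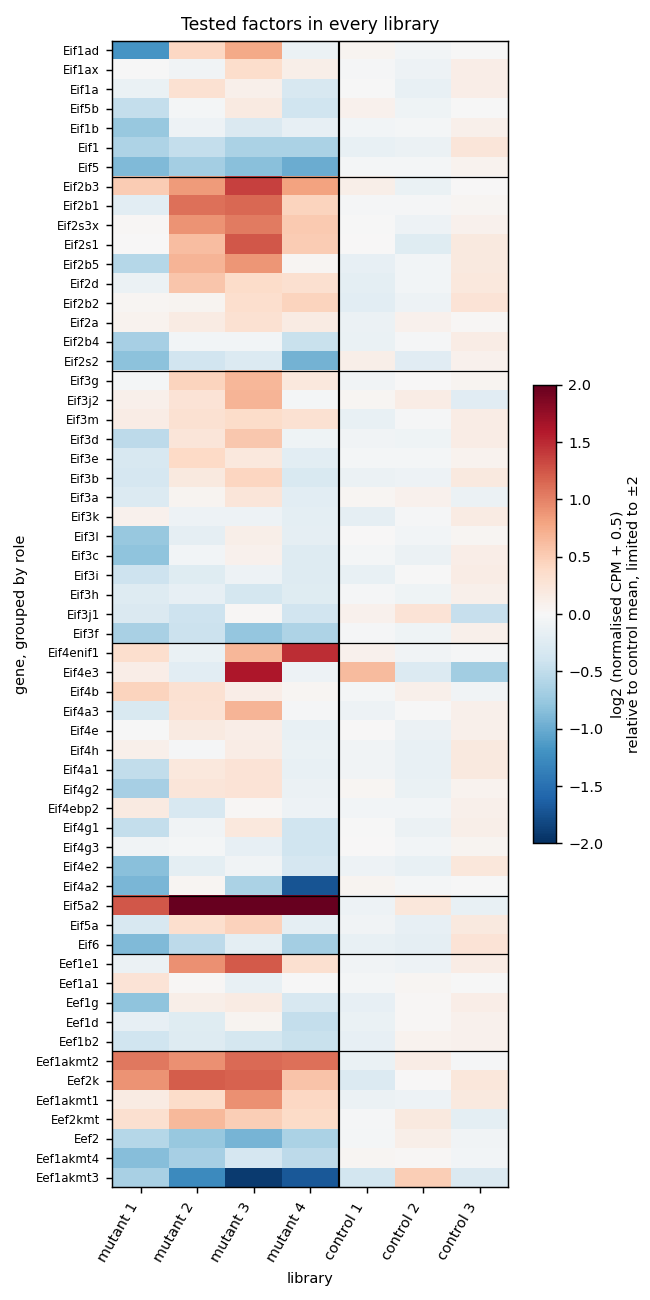
Each tested factor (rows, grouped by role) in each library (columns), as log2 of normalised CPM plus 0.5 relative to the control mean and limited to ±2. Over all rows mutant replicates 1 and 4 are more often blue and mutant replicate 3 more often red (medians −0.28, −0.15 and 0.21). This does not hold in every role group, since mutant replicate 4 is mostly red for eIF2 and eIF2B. Eif5a2, Eef2k, Eef1akmt2, Eif5 and Eif3f keep 1 direction in all 4 mutants.

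No gene of the eIF4 group, which binds the cap, unwinds the leader and holds the mRNA in a loop, was called among 13 tested. None had separate ranges. Over all genes tested 11.5% were called and 31.5% had separate ranges. In edgeR none of the 13 had an unadjusted p under 0.05, and total count scaling called 1, Eif4b, higher. The cap-binding protein gene Eif4e had 134, 154, 148 and 123 normalised CPM in mutants against 136, 125 and 145 in controls (0.05 ± 0.16 SE, edgeR adjusted p = 0.869). The scaffold Eif4g1 averaged 680 ± 154 against 759 ± 58.4 (−0.16 ± 0.22 SE, edgeR adjusted p = 0.667), and its relatives Eif4g2 and Eif4g3 had −0.02 and −0.16. The helicase cofactors Eif4b and Eif4h had 0.24 and 0.03. Per kilobase Eif4b was the most abundant of the group in mutants (156 in mutants and 132 normalised CPM per kilobase in controls) and Eif4a2 in controls (102 in mutants and 164 normalised CPM per kilobase in controls). The cap-binding inhibitor Eif4ebp2 averaged 239 ± 34.5 in mutants and 246 ± 16.2 in controls (−0.04 ± 0.17 SE, edgeR adjusted p = 0.892). The signs of Eif4g1, Eif4g2, Eif4g3, Eif4ebp2, Eif4a1 and Eif4e2 turned positive under total count scaling.

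Eif4a2, a second copy of the RNA helicase of eIF4F, was the most variable of the abundant genes. It had 464, 894, 563 and 264 normalised CPM in mutants against 902, 850 and 867 in controls, so mutant replicate 2 lay within the control range and mutant replicate 4 far below it. The log2 fold change was −0.68 ± 0.37 SE (edgeR adjusted p = 0.261). Its copy Eif4a1 had 400, 657, 686 and 509 in mutants against 539, 508 and 649 in controls, with a log2 fold change of −0.01 ± 0.24 SE, and 28.4% of its 50-base words also occur in other genes. Eif4enif1, which carries eIF4E into the nucleus, was also uneven, with 79.3, 56.7, 99.0 and 176 normalised CPM in mutants against 66.0, 59.8 and 61.7 in controls (0.72 ± 0.37 SE, edgeR adjusted p = 0.230). Eif4e1b had no read in any library, and Eif4ebp3 averaged 0.421 ± 0.105 in mutants and 0.848 ± 0.325 normalised CPM in controls, too low for the test and with 65.5% of its 50-base words shared.

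eIF5A carries hypusine, a modified lysine found in no other protein, and mammals have an abundant form and a form of narrow expression. Eif5a2, the narrow form (chromosome 3, 28781276 to 28798846, plus strand, GRCm38), had 2.11, 6.98, 30.7 and 5.85 normalised CPM in mutants against 0.528, 0.794 and 0.5001 in controls. All mutants lay above all controls, and mutant replicate 3 lay far above the other mutants. The counts behind these values were 27, 91, 439 and 96 reads in mutants against 10, 15 and 11 in controls. The fitted level was 18.6-fold higher in mutants (log2 fold change 4.22 ± 0.99 SE, edgeR adjusted p = 0.0374), with means of 11.4 ± 13.0 and 0.607 ± 0.162 normalised CPM (SD, n = 4 and 3). Without mutant replicate 3 the log2 fold change was 3.04 (edgeR adjusted p = 0.0415). The edgeR adjusted p was 0.150, 0.123 and 0.147 without control replicates 1, 2 and 3, and 0.0549 and 0.0561 without mutant replicates 2 and 4, and limma-voom gave 3.57 with an adjusted p of 0.0834.

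The abundant form Eif5a had 508, 796, 872 and 556 normalised CPM in mutants against 602, 565 and 726 in controls, overlapping throughout (0.11 ± 0.25 SE, edgeR adjusted p = 0.793). In mutants Eif5a2 therefore remained a minor form, with 2.27 against 287 normalised CPM per kilobase of exon for Eif5a, and in controls 0.121 against 266. The log2 ratio of Eif5a2 to Eif5a reads within a library, which does not depend on scaling between libraries, was −7.88, −6.83, −4.82 and −6.56 in mutants against −10.09, −9.43 and −10.44 in controls. The mean difference was 3.46 ± 0.70 SE without overlap (exact two-sided permutation test, p = 0.0571, the smallest that 4 against 3 libraries can give; 0.286 after adjustment over 10 paralogue pairs). Eif6, which keeps the large ribosomal subunit from joining too early, had 96.1, 123, 154 and 110 normalised CPM in mutants against 159, 157 and 214 in controls. Its groups did not overlap, but the log2 fold change of −0.55 ± 0.22 SE did not pass (edgeR adjusted p = 0.136).

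The 10 paralogue pairs could not reach a p under 0.05 in this design. Besides Eif5a2 to Eif5a, the pair Eif4e2 to Eif4e, in which Eif4e2 encodes a cap-binding protein that represses translation, separated the groups, with log2 ratios of −1.153, −0.71, −0.53 and −0.53 in mutants against −0.44, −0.36 and −0.20 in controls (difference −0.40 ± 0.16 SE, exact permutation p = 0.0571, adjusted 0.286). The ratio of Eif4a2 to Eif4a1 averaged −0.14 ± 0.62 in mutants and 0.63 ± 0.19 in controls (difference −0.78 ± 0.33 SE, exact permutation p = 0.114, adjusted 0.286), and ranges overlapped. The other 7 pairs overlapped as well, with differences between −0.20 and 1.75 on the log2 scale, and exact permutation p from 0.114 to 0.914. The upper end, Eef1a2 to Eef1a1, rests on 0 to 8 reads of Eef1a2 in a library.

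eEF1A was the most abundant factor in every library. Eef1a1 had 6402, 5338, 4780 and 5274 normalised CPM in mutants against 5157, 5415 and 5268 in controls, and its log2 fold change was 0.05 ± 0.23 SE (edgeR adjusted p = 0.915), and 39.4% of its words of 50 bases occur in other genes too. The subunits of its exchange factor, Eef1b2, Eef1d and Eef1g, had −0.36, −0.19 and −0.16. Under total count scaling these were −0.01, 0.15 and 0.19, and the median of the eEF1 group turned from −0.16 to 0.19. None of the 5 tested eEF1 genes passed, against 11.5% of all genes, nor did any have an unadjusted p under 0.05 in edgeR. Eef1b2 had separate ranges, with 437 ± 24.9 in mutants and 560 ± 54.5 normalised CPM in controls (edgeR adjusted p = 0.179). Eef1e1, a scaffold of the synthetase complex, had 12.5, 26.3, 32.8 and 17.1 in mutants against 13.1, 12.7 and 15.3 in controls (0.70 ± 0.35 SE, edgeR adjusted p = 0.216), the order of libraries seen for eIF2. Loci sharing sequence with Eef1g held reads equal to 12.3% to 14.5% of its own in mutants and 5.94% to 8.45% in controls, so its value is uncertain.

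In the group of eEF2 and the enzymes that modify both elongation factors, 2 of 7 genes were called, both higher. Ranges were separate in 6 of 7. Over all genes tested 11.5% were called and 31.5% had separate ranges, and the group holds only 7 genes. Eef2 had 2935, 2573, 2293 and 2815 normalised CPM in mutants against 4238, 4714 and 4149 in controls. The groups were well apart, and the level was 1.65-fold lower in mutants, but it did not pass (log2 fold change −0.72 ± 0.22 SE, edgeR adjusted p = 0.0720; 0.0289 without mutant replicate 1). It was called by DESeq2 (adjusted p = 0.000205) and limma-voom (adjusted p = 0.0326). Total count scaling left it at −0.37 (edgeR adjusted p = 0.246) and upper-quartile scaling at −0.58 (edgeR adjusted p = 0.113). Without any 1 of the other libraries the edgeR adjusted p was 0.117 to 0.245. The authors' deposited table gave −0.71 with an adjusted p of 0.000269. Eef2k, the calcium- and calmodulin-dependent kinase whose phosphorylation of eEF2 slows elongation, had 46.0, 56.7, 56.0 and 36.5 normalised CPM in mutants against 19.99, 24.5 and 28.5 in controls. Every mutant lay above every control. Its mean was 48.8 ± 9.53 in mutants against 24.3 ± 4.26 in controls (SD, n = 4 and 3; log2 fold change 1.003 ± 0.23 SE, edgeR adjusted p = 0.0345), and it spans 120842831 to 120907450 of chromosome 7 (plus strand, GRCm38). The edgeR adjusted p was 0.138, 0.117 and 0.0966 without control replicates 1, 2 and 3 and 0.0681 and 0.0773 without mutant replicates 2 and 3.

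Eef1akmt2 (chromosome 7, 132827457 to 132852673, minus strand, GRCm38) had 9.70, 8.74, 10.2 and 10.1 normalised CPM in mutants against 3.96, 4.92 and 4.32 in controls, on 114 to 165 reads in mutants and 75 to 95 in controls. Every mutant lay above every control, and the mutants lay close together. Its level was 2.20-fold higher in mutants (log2 fold change 1.14 ± 0.24 SE, edgeR adjusted p = 0.0272), and the edgeR adjusted p was 0.128, 0.0938 and 0.116 without control replicates 1, 2 and 3 and 0.0662 and 0.0555 without mutant replicates 3 and 4. Eef1akmt3, another eEF1A lysine methyltransferase, had the most negative fold change of all 59 factors, with 2.03, 1.15, 0.560 and 0.731 normalised CPM in mutants against 2.58, 5.08 and 2.77 in controls. Ranges did not overlap, but only 8 to 26 reads in mutants and 49 to 96 in controls lay behind it and it did not pass (−1.64 ± 0.52 SE, edgeR adjusted p = 0.0848), though DESeq2 called it (adjusted p = 0.0238), as did edgeR without mutant replicate 1 (adjusted p = 0.0206). Eef1akmt4 was also below the controls (−0.75 ± 0.33 SE, edgeR adjusted p = 0.170), Eef1akmt1 had 0.52 ± 0.27 SE with overlapping ranges, and Eef2kmt, which methylates eEF2, was above the controls (0.48 ± 0.20 SE, edgeR adjusted p = 0.149) and was called in edgeR under total count scaling. The eEF1A methyltransferases thus had values of both signs.

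**Figure D3:**
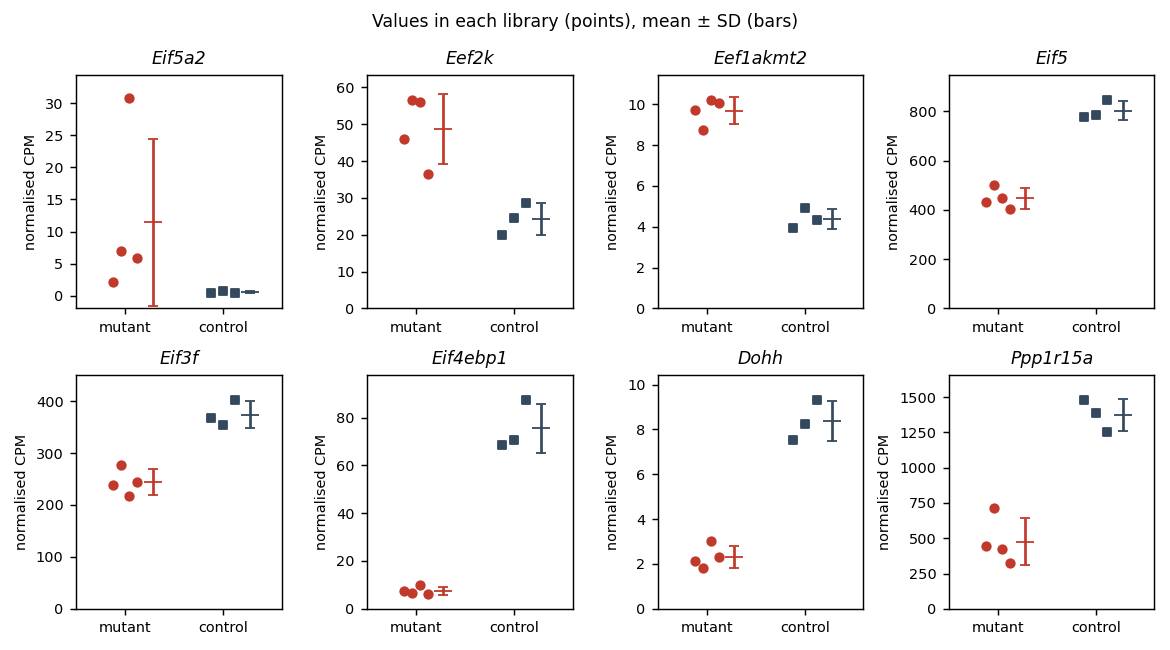
Normalised CPM in each mutant (circles) and control (squares) library for the 5 called factors and 3 regulators, with the mean and SD beside the points. The groups are apart in all 8 panels, and for Eif5a2 the mutant with 30.7 normalised CPM stands far above the other mutants.

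The mutants differed from each other across the whole set. Mutant replicate 1 had 34 of the 59 tested factors below every control and 10 above, and mutant replicate 4 had 31 below and 16 above, whereas mutant replicate 3 had 35 above and 14 below and mutant replicate 2 had 26 above and 17 below. Mutant replicate 3 was the highest of the 4 mutants for 36 factors and mutant replicate 1 the lowest for 34. The summed level of 11 cell cycle genes ran in the same order of mutants at its ends, with 346, 1125, 1656 and 872 normalised CPM in mutants against 462, 465 and 716 in controls. In mutant replicate 1 Top2a alone gave 270 of that sum and lay above every control (115 to 213 normalised CPM). The other cell cycle genes lay below every control in that library, such as Mki67 with 12.3 against 72.6 to 128. The part of these genes in the factor levels was not tested. All factors together took 1.92% to 2.26% of gene reads in mutants and 1.86% to 1.93% in controls, ranges that overlap. On the TMM scale their sum was 17892 to 20299 normalised CPM in mutants and 21294 to 22514 in controls, without overlap and lower in mutants, so the direction of the total depends on the scaling between libraries.

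**Figure D4:**
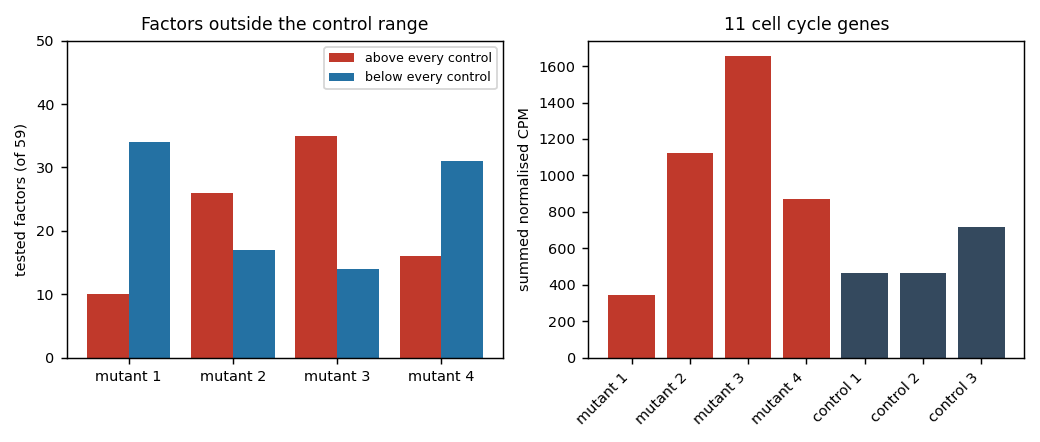
Left, the number of the 59 tested factors above or below every control in each mutant. Right, the summed normalised CPM of 11 cell cycle genes in each library, lowest in mutant replicate 1 at 346 and highest in mutant replicate 3 at 1656. Of the 346, Top2a gave 270.

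Among regulators of these factors, the shares called were 6.67% (mTORC1 and cap-binding control), 25% (integrated stress response) and 22.2% (hypusine and diphthamide enzymes). These lists hold 15, 8 and 9 genes, and over all genes tested the share was 11.5%. Eif4ebp1, the inhibitor that sequesters eIF4E when mTORC1 is inactive, had 7.43, 6.60, 9.80 and 6.28 normalised CPM in mutants against 68.5, 70.6 and 87.4 in controls. The groups lay far apart, the log2 fold change being −3.32 ± 0.22 SE (edgeR adjusted p = 0.00125), and the adjusted p stayed under 0.05 without each library in turn (at most 0.0105). It was the 1 called gene of 15 in the list of mTORC1 and cap-binding control, whose median was −0.16. While Eif4ebp1 was lower, its target Eif4e and its paralogue Eif4ebp2 had the values near 0 given above.

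Among 8 genes of the integrated stress response, 1 was higher and 1 lower. Ppp1r15a, which directs a phosphatase to phosphorylated eIF2, had 444, 711, 424 and 326 normalised CPM in mutants against 1481, 1385 and 1255 in controls (−1.53 ± 0.28 SE, edgeR adjusted p = 0.0203). Eif2ak2, the eIF2 kinase activated by double-stranded RNA, had 91.1, 111, 97.1 and 65.6 normalised CPM in mutants against 44.9, 35.4 and 42.0 in controls (1.16 ± 0.22 SE, edgeR adjusted p = 0.0215). Neither pair of groups overlapped. Of the enzymes that make hypusine on eIF5A and diphthamide on eEF2, 2 of 9 were called. Dohh, which completes hypusine, had 2.11, 1.84, 3.01 and 2.32 normalised CPM in mutants against 7.54, 8.25 and 9.32 in controls (−1.85 ± 0.29 SE, edgeR adjusted p = 0.0127), and Dph6, which completes diphthamide, averaged 33.0 ± 4.59 against 16.8 ± 2.76 (0.98 ± 0.21 SE, edgeR adjusted p = 0.0299). These 4 genes were not called when any 1 control was left out, with edgeR adjusted p from 0.0673 to 0.111. Without mutant replicate 3, Ppp1r15a, Eif2ak2 and Dph6 had edgeR adjusted p of 0.0595, 0.0548 and 0.0697, and without mutant replicate 2 Dph6 had 0.0619.

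In the lists for the remaining steps of translation outside the ribosome, 4.55% to 12.5% of genes were called, against 11.5% of all genes. Among initiation helpers without an Eif symbol 1 of 12 was called (Ctif, which serves the nuclear cap-binding complex, −0.97 ± 0.21 SE, edgeR adjusted p = 0.0298), among release and recycling factors 1 of 8 (Hbs1l, a ribosome rescue factor, −0.68 ± 0.17 SE, edgeR adjusted p = 0.0410), among mitochondrial translation factors 1 of 10 (Mtrf1, a mitochondrial release factor, 2.35 ± 0.38 SE, edgeR adjusted p = 0.0146) and among cytosolic tRNA synthetases 1 of 22 (Cars, for cysteine, −1.13 ± 0.23 SE, edgeR adjusted p = 0.0270). Without any 1 control these 4 genes had edgeR adjusted p from 0.0614 to 0.186. Ctif and Hbs1l were also not called without mutant replicates 2 (0.0639 and 0.0846) or 3 (0.0698 and 0.0883) or with total count scaling (0.114 and 0.221), nor was Hbs1l without mutant replicate 4 (0.0859) or with upper-quartile scaling (0.0696). Of 82 tested cytosolic ribosomal protein genes, 1 was higher and 19 lower (24.4% called, against 11.5% of all genes), with a median of −0.32. Under total count scaling these counts were 5 and 7 and the median 0.03, where all genes had 0.41 and 2734 of 14610 were called. Under upper-quartile scaling they were 2 and 12, where 1882 of 14610 genes were called. Without mutant replicate 1 they were 3 and 21, where 29.5% of all genes were called. Without mutant replicates 2, 3 and 4 they were 0 and 12, 0 and 6, and 0 and 10. There 6.75%, 4.21% and 6.34% of all genes were called. Without control replicates 1, 2 and 3 they were 0 and 2, 0 and 2, and 0 and 1. There 0.878%, 1.11% and 0.902% of all genes were called. With DESeq2 they were 4 and 29, where 23.4% of all genes were called, and with limma-voom 2 and 21, where 13.3% were. The replicate block called 0 ribosomal protein genes. The larger share of ribosomal protein genes called thus did not hold under total count scaling, without mutant replicate 1 or with the replicate block. It held in the other settings listed here, though without any 1 control it rested on 1 or 2 genes. The lowest were Rps29 with 147 ± 9.45 normalised CPM in mutants against 415 ± 34.1 in controls (−1.50 ± 0.15 SE, edgeR adjusted p = 0.00509), Rpl13a (−1.40 ± 0.22 SE) and Rplp2 (−1.36 ± 0.16 SE), of which Rps29 was called without each library in turn. Ribosomal protein genes have many near-identical processed copies, so how reads were divided among them is uncertain. The median of the factors, 0.03, stood nearer to that of all genes than the median of the ribosomal proteins did, and the difference between the 2 lists was not tested.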

How the data were processed

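Each library has a deposited table of counts, whole numbers of reads per gene in an unstranded and 2 stranded columns, of which the reverse-stranded column was used. Libraries were strand-specific mRNA libraries, per the labels' protocols. The submitters' processing notes name cutadapt, Trim Galore, FastQC, STAR, mm10 and DESeq2, and no versions. The authors' deposited table gives log2 fold changes and adjusted p-values, printed only where named. Rows that name no gene stayed out of library sizes; unmapped reads were 3.90% to 6.70%, multimapping 8.45% to 11.2%, without a gene 10.5% to 14.7% and ambiguous 0.827% to 1.29% of a library's reads.

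Genes passing filterByExpr were tested with the two-sided quasi-likelihood F test of edgeR 4.0.16 in R 4.3.3 (TMM, genotype as the only term, Benjamini-Hochberg over 14610 genes, threshold 0.05). Fold changes are mutant over control. The test was tried on simulated counts. DESeq2 1.42.0, limma-voom 3.58.1, other scalings, no filter, unstranded counts, a replicate term and leaving out each library were alternatives. Gene names and coordinates come from GENCODE M21 (GRCm38), and shared words are 50-base words of transcripts found in other genes. Paralogue ratios used 0.5 read added to each count and exact permutation tests. Named factors were those called, the most abundant per kilobase in each role group (mean of 7 libraries), the 5 largest and 5 smallest fold changes at 1 CPM or more, both ends of eIF3 and the paralogue pairs. Other factors described were chosen after their values were seen, as examples of a role. In other lists, up to 3 called genes were named. The members and lists were chosen with earlier results of these data known. Since mutants are single mice and controls are pools, p-values rest on the spread among single mice and among pools, and whether 2 pools held tissue of 1 mouse is not stated.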

Additional observations from a re-analysis of the deposited data

Results flagged for a closer look

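In 39 groups of 4 mutant values (29 named factors and 10 paralogue ratios), 4 had 1 library whose gap to its nearest neighbour took up more of the whole range than Dixon's test allows at the 95% level, while chance gives about 1 in 20 groups. Eif5a2 stood at 30.7 normalised CPM in mutant replicate 3, against 2.11 to 6.98 in the other mutants. Eif4e3, a cap-binding protein, stood at 10.5 normalised CPM in the same library, against 2.61 to 3.44 in the other mutants, and its log2 fold change was −0.05 without that library and 0.65 with it. Eif1 stood at 335 normalised CPM in mutant replicate 2, against 298 to 302 in the others, a gap that is small beside the distance to the controls (418 to 547). Eef1a2, the muscle and nerve form of eEF1A, stood at 0.614 normalised CPM in mutant replicate 2, which is 8 reads, against 0 to 1 read in the other mutants.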

How the results depend on the processing

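The numbers of factors called were 3 higher and 2 lower. Higher calls were 8 with total count scaling, 1 (Eif5a2) without a low-count filter and 0 to 8 without 1 library. Lower calls were 1 with upper-quartile scaling or unstranded counts, 5 with DESeq2, 0 with total count scaling (2 at an unadjusted p under 0.05) or without a filter (7 at an unadjusted p under 0.05) and 0 to 5 without 1 library. Over all genes, where 784 were higher and 903 lower, upper-quartile scaling gave 1178 higher, total count scaling 2202 higher and 532 lower, no filter 355 higher, DESeq2 1789 higher and 1634 lower, and leaving out 1 library 45 to 2314 higher and 84 to 2089 lower. Higher genes made up 46.5% of calls with TMM, 62.6% (upper quartile), 80.5% (total count) and 33.6% without a filter, and the median of all genes under the 3 scalings was 0.06, 0.20 and 0.41. The replicate numbers were not taken as pairs, since mutants are single mice and controls are pools from an earlier series. Correlations of deviations for the same number were −0.02, −0.36 and 0.16. They cannot decide on pairing, since those for unlike numbers ran from −0.29 to 0.35. With the replicate block edgeR called 0 factors (4 higher and 1 lower at an unadjusted p under 0.05). Over all genes it called 2 higher and 0 lower (1397 and 1655 at an unadjusted p under 0.05). Signs of small fold changes of named factors turned in some settings. Under total count scaling they turned for Eif1b (0.042), Eif3h (0.10), Eif3j1 (0.084), Eif4a1 (0.35), Eif4e2 (0.024), Eif4ebp2 (0.31), Eif4g1 (0.20), Eif4g2 (0.34) and Eif4g3 (0.18). Signs of other factors turned there too, among them Eef1d (0.15), Eef1g (0.19) and Eif5b (0.19). Under upper-quartile scaling the sign turned for Eif4a1 (0.13), Eif4ebp2 (0.10) and Eif4g2 (0.12). With unstranded counts it turned for Eif4a1 (0.035) and Eif4g2 (0.020), with the replicate block for Eif4a1 (0.0074) and without a filter for Eif4h (−0.0087). Without 1 library the fold change ran over 0 for Eif4a1 (−0.11 to 0.17), Eif4e3 (−0.049 to 1.21), Eif4ebp2 (−0.084 to 0.046), Eif4g2 (−0.12 to 0.19), Eif4h (−0.0069 to 0.15) and Eif5a (−0.017 to 0.27), and so did the ratios of Eif4g3 to Eif4g1 (−0.11 to 0.15) and Eif4ebp2 to Eif4e (−0.19 to 0.039). The ratios of Eif5a2 to Eif5a (2.89 to 3.91) and Eif4e2 to Eif4e (−0.47 to −0.26) kept their sign. The cause of these shifts was not tested.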
